A study of Mus musculus with 8 samples.

Results

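Platelets are made by megakaryocytes, and the genes described here encode parts of the platelet surface and of its granules. Integrin αIIb, the CD41 antigen encoded by Itga2b, pairs with integrin β3 (Itgb3) to form the platelet fibrinogen receptor. Glycoproteins Ibα, Ibβ, IX and V (Gp1ba, Gp1bb, Gp9 and Gp5) form the receptor for von Willebrand factor, Treml1 encodes a receptor held in the alpha granules, and Pf4 and Ppbp encode chemokines that the alpha granules release. CD41 is also known in the embryo as an early surface marker of cells that leave the endothelium for a blood fate, so it is not a megakaryocyte antigen alone.

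The 9 genes and the CD41 antibody tag were taken by name from the count table, as 10 of its 28020 rows (9 of 28014 genes and 1 of 6 tags), and their counts were followed over all 10 deposited cell clusters. The data were CITE-seq, in which RNA and the DNA tags of bound antibodies are counted as unique molecules (UMIs) in the same droplets, of CD31+ cells sorted from the aorta-gonad-mesonephros (AGM) region of E10.5 mouse embryos. There were 5 WT libraries (strain C57BL/6; WT 1 to WT 5) and 3 Meis1-flox/VE-Cre libraries with the genotype label Meis1-knockout (cKO 1 to cKO 3), each from a pool of 2 to 5 embryos. In the cKO the transcription factor gene Meis1 is cut in exon 8 by a Cre that the VE-cadherin promoter drives, so deletion is aimed at endothelium and the cells that descend from it. The labels give the strain of the cKO only as Meis1-flox/VE-Cre. The study describes its WT controls as Cre-negative littermates, and whether this holds for the sequenced pools is not given in the sources used here, so a part of strain in the genotype differences was not tested.

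The cluster called Megakaryocytes held 359 of 15168 cells, 5 to 102 per library with 5 in WT 3, and was set beside erythro-myeloid progenitors (EMP, 747 cells), EHT (endothelial-to-hematopoietic transition, 488 cells), the Myeloid cluster (2397), pre-hemogenic endothelium (pre-HE, 248), arterial endothelium (aEC, 1512) and 4 venous endothelial clusters (vEC_1 to vEC_4, 1372 to 2853). Libraries fell into 2 depth classes: WT 1 to WT 4 had a median of 26572 to 28553 UMIs per cell, and WT 5 and the 3 cKO libraries had 9611.5 to 14895, so depth and genotype are largely bound together and only WT 5 matches the cKO in depth. WT 4 held no tag counts. Meis1 stood at 13.7 to 26.5 CPM (UMIs of a gene per 1000000 UMIs of the same cells) over all cells of the WT libraries and at 9.16 to 13.8 CPM in the cKO. These counts are taken near the 3' end and do not read exon 8, so they check the labels only in part. Across libraries, 33 barcodes occurred in more than 1 library (66 cells), at most 4 for any pair.

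The name of the Megakaryocytes cluster was checked against its markers. All 7 listed markers (5 of them genes described here) were at 10 CPM or more in it, and their sum was 22027 ± 8682 CPM (SD, n = 8 libraries) against 167 ± 43.8 in EMP and 21.3 ± 7.89 in aEC. The deposited names were assigned from RNA of these same cells, so RNA levels by cluster are given as a description without a test. The antibody tags took no part in the clustering and are tested below.

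The promoters of 8 of the 9 genes were matched in RefSeq (GRCm38.p6, the mm10 assembly). Those of 3 genes that the results turn on are shown as the 120 bases before the annotated start on the strand of the gene: Itga2b (chr11:102469884-102470003, minus strand), Gp5 (chr16:30310782-30310901, minus strand) and Pf4 (chr5:90772315-90772434, plus strand). Capitals mark GATA letters (AGATAA, or with another last letter AGATAG, and with another first letter TGATAA, or with both changed TGATAG) and ETS letters (AGGAAG, or with another first letter CGGAAG) on either strand, since the GATA and ETS families include the factors best known at megakaryocyte genes.
Itga2b: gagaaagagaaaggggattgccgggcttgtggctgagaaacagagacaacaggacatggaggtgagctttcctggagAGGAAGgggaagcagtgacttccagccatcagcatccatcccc
Gp5: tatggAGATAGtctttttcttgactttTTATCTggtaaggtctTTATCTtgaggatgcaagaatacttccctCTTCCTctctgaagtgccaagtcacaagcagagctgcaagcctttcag
Pf4: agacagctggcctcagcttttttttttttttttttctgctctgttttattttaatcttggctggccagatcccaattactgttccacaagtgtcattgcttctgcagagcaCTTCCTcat
The Itga2b window holds ETS letters 43 to 38 bases before the start, the Gp5 window holds 3 GATA matches and 1 ETS match, and the Pf4 window holds ETS letters 9 to 4 bases before the start. ETS letters were in 6 of the 8 windows and in 24% of 32851 promoters of the same length. GATA letters were in 3 of the 8 (Gp5, Gp1ba and Gp1bb) and in 12.8% of all. A match is a run of letters and not a bound site.

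The integrin pair was high in Megakaryocytes and present at lower levels in EMP and EHT, in opposite orders. Itga2b (chr11:102453297-102469883) was at 906, 519, 507, 569 and 391 CPM in Megakaryocytes of WT 1 to WT 5 and at 433, 549 and 331 CPM in cKO 1 to cKO 3. It was at 39.4 ± 8.42 CPM in EMP (31.7 to 54.1), 17.2 ± 4.28 in EHT (10.4 to 23.1) and 11.8 ± 2.58 in aEC (8.51 to 14.9), all n = 8. The ranges of Megakaryocytes, EMP and EHT did not overlap, whereas EHT and aEC overlapped although EHT was higher in 8 of 8 libraries. The other 6 clusters had means of 4.51 to 7.65 CPM, and their order among themselves did not hold beyond the spread between libraries. In pre-HE of WT 2 no Itga2b UMI was counted, and 3 UMIs there would be 14 CPM.

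Itgb3 (chr11:104608000-104670476) was at 580, 406, 393, 261 and 364 CPM in Megakaryocytes of WT 1 to WT 5 and at 499, 441 and 396 CPM in the cKO libraries. It was next highest in EHT (33.3 ± 10.6 CPM, 20.7 to 45.9) and then in EMP (16.9 ± 5.11 CPM, 8.85 to 23.4), with EHT above EMP in 8 of 8 libraries. Myeloid and pre-HE had means of 5.41 and 5.12 CPM, and aEC of 1.5 CPM. The ratio of Itga2b to Itgb3 UMIs within a library separates these clusters without overlap between EMP and EHT: it was 2.55 ± 0.945 in EMP (1.4 to 3.96), 1.29 ± 0.431 in Megakaryocytes (0.835 to 2.18) and 0.561 ± 0.2 in EHT (0.227 to 0.82). The α chain RNA thus outnumbered the β chain RNA in 8 of 8 EMP libraries and in 0 of 8 EHT libraries. Within EHT the ratio was 0.469 to 0.82 in WT and 0.227 to 0.455 in the cKO, where EHT of cKO 2 held 5 Itga2b UMIs.

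The von Willebrand receptor genes were lower relative to Megakaryocytes in EMP than Itga2b was. Gp1bb (chr16:18620319-18622403) averaged 944 ± 247 CPM in Megakaryocytes (665 to 1321) and 19.1 ± 6.4 in EMP (5.81 to 25.3), with means of at most 1.74 CPM in the other 8 clusters. Gp5 (chr16:30307685-30310781) averaged 386 ± 114 CPM in Megakaryocytes and 10.8 ± 2.36 in EMP, with means of at most 0.562 CPM in the rest. Gp1ba (chr11:70639102-70643986), the chain that binds von Willebrand factor, averaged 104 ± 42.9 CPM in Megakaryocytes and at most 1.72 CPM in any other cluster. Gp9 (chr6:87776131-87779786) differed from its partners by also being counted in EHT, at 9.39 ± 5.1 CPM against 12.6 ± 8.29 in EMP and 438 ± 296 in Megakaryocytes. Treml1 (chr17:48359916-48367176) was likewise next highest in EMP, with 527 ± 299 CPM in Megakaryocytes, 10.2 ± 6.68 in EMP and means of at most 1.07 CPM elsewhere.

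The chemokine gene Pf4 was the most abundant of the 9, while Ppbp averaged 844 CPM in Megakaryocytes, below Gp1bb at 944 CPM. Pf4 (chr5:90772435-90773383) was at 34746, 25869, 18180, 18740 and 17654 CPM in Megakaryocytes of WT 1 to WT 5 and at 11485, 18598 and 10868 CPM in the cKO libraries, the highest of the 9 genes in every library. Since each UMI is 1 molecule tagged at its 3' end, levels are compared between genes without a length correction. Unlike the surface genes, Pf4 was next highest in Myeloid cells (82.9 ± 31.7 CPM), then EHT (35.3 ± 10.1), with Megakaryocytes, Myeloid and EHT not overlapping. In EMP it was 5.36 to 15.9 CPM in 7 libraries and 58.9 CPM in WT 5, and the endothelial clusters had means of 7.14 to 11.2 CPM. Ppbp (chr5:90768518-90770063), its neighbour on the chromosome, ranged from 48 to 1659 CPM in Megakaryocytes and averaged 3.61 ± 2.48 in EHT. In EMP it was counted as 4 UMIs in all, with 5 of 8 libraries at 0, where 3 UMIs would be 0.699 to 1.46 CPM.

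**Figure D1:**
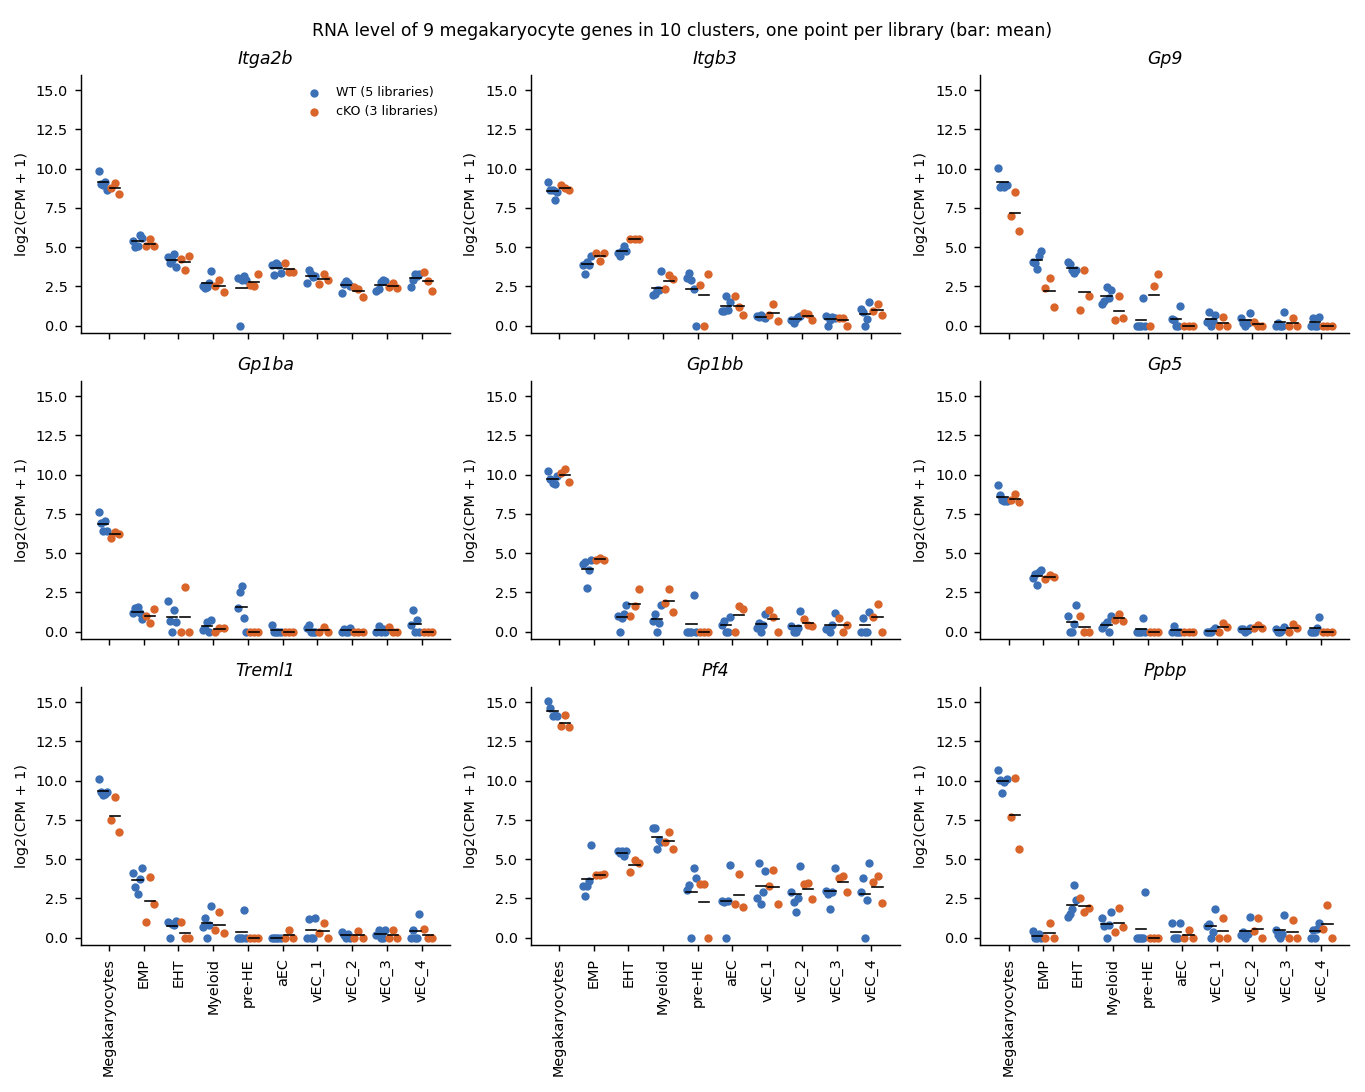
RNA level of the 9 genes in the 10 clusters, as log2(CPM + 1), with 1 point per library (blue WT, orange cKO) and bars for the group means. Every gene is highest in Megakaryocytes, Itga2b and Itgb3 keep a level in EMP and EHT, and Pf4 reads above the other 8 genes in Myeloid cells of every library. In EHT it does so in the 5 WT libraries, while Itgb3 is higher in the 3 cKO libraries.

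As a share of the Megakaryocytes level of the same library (median over 8 libraries), EMP held 7.84% of Itga2b, 4.38% of Itgb3, 2.8% of Gp5, 2.74% of Gp9, 2.09% of Gp1bb, 1.88% of Treml1, 1.24% of Gp1ba and 0.0699% of Pf4. EHT held 8.11% of Itgb3, 3.33% of Itga2b, 2.22% of Gp9 and 0.174% of Pf4. The endothelial aEC cells held 2.38% of Itga2b but 0.0241% of Pf4. The genes therefore did not stand in 1 ratio to each other over the clusters, as the highest gene in Megakaryocytes, Pf4, was the lowest by share in EMP apart from Ppbp.

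Counted per cell, the programme was broad in Megakaryocytes and scattered elsewhere. After each cell was thinned to 5000 UMIs (359 of 359 Megakaryocytes, 747 of 747 EMP and 485 of 488 EHT cells were deep enough), a Megakaryocytes cell held UMIs of 6.64 ± 0.893 of the 9 genes (mean of library means, 5.13 to 7.61), and 25% ± 21.1 of cells held all 9. No cell of the other 9 clusters held all 9, and 61.5% of EMP, 61.1% of EHT, 80.7% of Myeloid and 93.3% of pre-HE cells held 0 of them. Itga2b was found in 85.2% ± 9.44 of thinned Megakaryocytes cells, 16.8% ± 5.27 of EMP, 7.05% ± 2.95 of EHT and 5.41% ± 1.98 of aEC. Without thinning, at library medians of 13890 to 51571 UMIs in Megakaryocytes and 7034.5 to 21911 in aEC, these shares were 99.8%, 61.8%, 31.1% and 15%, so the EHT share lay close to that of aEC at equal depth. Itgb3 was in 18.2% ± 6.18 of EHT cells against 7.8% ± 2.24 of EMP and 0.889% ± 0.708 of aEC, the share read as background. Pf4 was in 92.3% ± 5.58 of Megakaryocytes, 14.8% ± 6.04 of Myeloid, 14.4% ± 5.47 of EHT, 5.82% ± 4.12 of EMP and 3.42% ± 4.22 of aEC cells. The Pf4 share of EMP overlapped that of aEC across libraries (0% to 14.4% against 0% to 12.6%), although within libraries it was above that of aEC in 7 of 8, with both at 0 in WT 3. Values after ± are SDs between the 8 libraries.

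**Figure D2:**
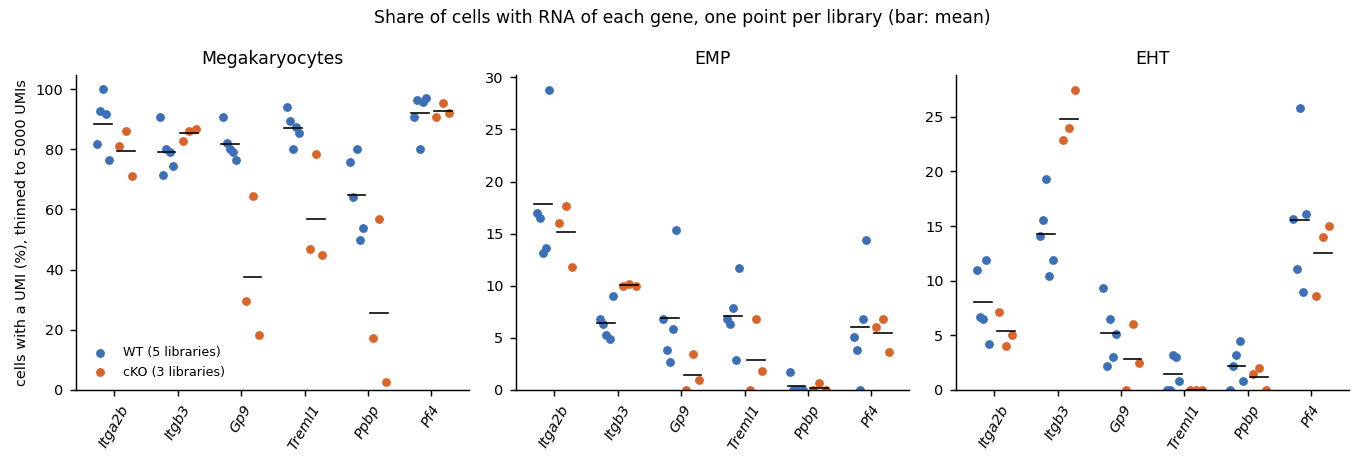
Percent of cells with at least 1 UMI of each of 6 genes after thinning every cell to 5000 UMIs, in Megakaryocytes, EMP and EHT, with 1 point per library (blue WT, orange cKO) and bars for group means. In EHT Itgb3 is found in more cells than Pf4 in the 3 cKO libraries, WT 2 and WT 4, and in fewer in WT 1, WT 3 and WT 5, and the cKO points of Gp9, Treml1 and Ppbp in Megakaryocytes spread furthest down.

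Over the 10 clusters, the genes whose log-scale pattern was most like that of Itga2b (Pearson's r over the 10 cluster means of log2(CPM + 1) across libraries, among 7763 genes at 20 CPM or more in some cluster) were Mta3 (0.981), Epor (0.979), Mfsd2b (0.975), Grtp1 (0.975) and Kcnj5 (0.973). Those most like Pf4 were Tln1 (0.986), Clec4g (0.982), Irs2 (0.98), Impa1 (0.975) and Prune2 (0.973). Tln1 encodes talin, which binds integrin tails, and Epor encodes the erythropoietin receptor. All 10 were highest in Megakaryocytes, from 20.4 CPM for Clec4g to 975 CPM for Tln1, and the clusters share libraries and depth, so these r are descriptions.

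The CD41 protein, like Itga2b RNA, was highest in Megakaryocytes, then EMP, then EHT. The mean CD41 tag count per cell in Megakaryocytes was 1891, 1708, 585 and 436 in WT 1, WT 2, WT 3 and WT 5, and 604, 440 and 126 in cKO 1 to cKO 3. In EMP it was 177, 137, 64.5 and 40.6 in those WT libraries and 52.4, 30.8 and 10.2 in the cKO. In EHT it was 137, 111, 48.9 and 36.3 in WT and 16.3, 14.4 and 7.35 in the cKO. Libraries differed widely in tag yield, so tags were compared within libraries only, as the log2 ratio of means, with an exact two-sided sign-flip permutation test over the 7 libraries and Benjamini-Hochberg adjustment over 8 contrasts (threshold 0.05).

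Against aEC of the same library, the CD41 tag was 192-fold higher in Megakaryocytes (log2 7.59 ± 0.685, SD), 16.7-fold in EMP (4.06 ± 0.613), 10.7-fold in EHT (3.42 ± 0.441) and 8.76-fold in Myeloid cells (3.13 ± 0.685), each in 7 of 7 libraries with exact permutation p = 0.0156 (adjusted 0.0179), the smallest p that 7 libraries allow. For pre-HE no difference from aEC was shown (log2 -0.10 ± 0.527, higher in 3 of 7 libraries, exact permutation p = 0.672). Megakaryocytes carried 11.5-fold more tag than EMP (log2 3.52 ± 0.208) and 17.9-fold more than EHT (4.16 ± 0.653), both in 7 of 7 libraries at the same smallest p. The Megakaryocytes-to-EMP ratio of means lay between 3.18 and 3.83 on the log2 scale in every library, whereas by the centred log ratio, which scales CD41 to the other tags, it ran from 2.14 to 4.16 (SD 0.722). EMP exceeded EHT by 1.56-fold (log2 0.64 ± 0.548, 7 of 7, exact permutation p = 0.0156, adjusted 0.0179). Scaled against the other tags by a centred log ratio, the Myeloid difference from aEC was 0.12 (adjusted exact permutation p = 0.438) and no longer passed. The other differences from aEC also shrank under this ratio, to 4.42 in Megakaryocytes, 0.99 in EMP and 0.60 in EHT, each still above 0 in 7 of 7 libraries. By the median of log2(tag + 1) the EMP to EHT difference was 0.52 (adjusted 0.0536, exact permutation).

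In single cells, the tag was read against the 99th percentile of endothelial cells (aEC and the 4 vEC clusters) of the same library. All Megakaryocytes cells were above it in 7 of 7 libraries, as were 52.3% to 94.7% of EMP, 33.9% to 84.4% of EHT and 28.2% to 57.1% of Myeloid cells. Of pre-HE cells 0% to 3.45% were above it. Myeloid cells carried the tag while their mean Itga2b level (5.47 ± 2.08 CPM) lay under that of aEC. Within endothelium RNA and tag were not in the same order. Itga2b was 8.51 to 14.9 CPM in aEC against 2.61 to 10.6 in the vEC clusters of the 7 tagged libraries, while the mean tag of aEC (0.68 to 16.1 per cell) was below that of vEC_3 in 7 of 7 libraries. The mean tag of aEC was above that of vEC_1 in WT 1, WT 3 and cKO 3, and above that of vEC_2 in cKO 3 only. The median UMI count of aEC cells was also below that of vEC_3 cells in each tagged library (20550 against 27741 in WT 1). The median tag of both clusters was only 0 to 2 in WT 5 and the cKO libraries. The part of depth in this order was not tested. Deeper cells also carried more tag. The median Spearman's rho of tag with total UMIs within a library was 0.19 in Megakaryocytes, 0.25 in EMP, 0.47 in EHT and 0.55 in Myeloid. For tag with Itga2b UMIs as a share of the total UMIs of the cell, it was 0.205, 0.22, 0.29 and 0.29.

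**Figure D3:**
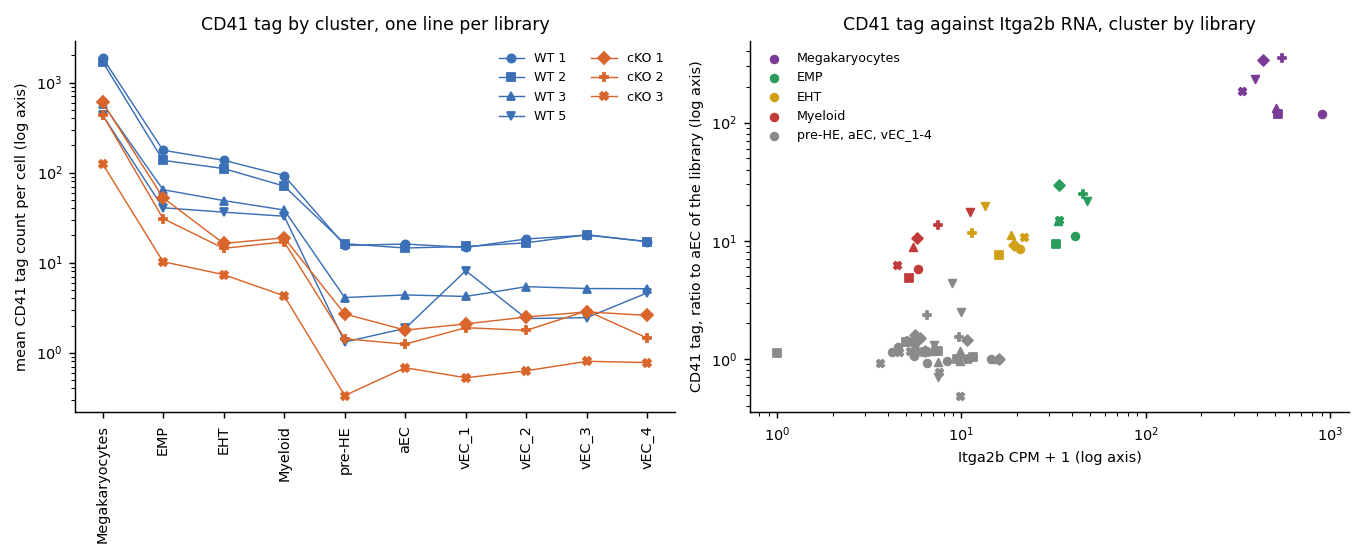
Left, mean CD41 tag count per cell in each cluster on a log axis, with 1 line per tagged library (blue WT, orange cKO). Right, the mean tag as a ratio to aEC of the same library against Itga2b CPM + 1, both on log axes, with 1 point per cluster and library, where EHT and Myeloid points sit at 4.87 to 19.5 times aEC although their RNA is near that of endothelium.

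The CD41 tag was then set against Itga2b RNA in the same cell. With cells thinned to 5000 UMIs, EMP cells with an Itga2b UMI had a tag 0.23 ± 0.316 higher on the log2 scale than EMP cells without (5 of 7 libraries, exact permutation p = 0.125, adjusted 0.375). The difference was 0.23 ± 0.591 in Megakaryocytes (3 of 5 libraries with enough cells, exact permutation p = 0.5, adjusted 0.5) and -0.67 ± 0.544 in EHT (0 of 3, exact permutation p = 0.25, the smallest possible with 3, adjusted 0.375). None passed. Without thinning, where deeper cells both show more RNA and hold more tag, the difference was 0.82 in EMP and 0.81 in EHT (adjusted exact permutation p = 0.0312 for both).

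Because RNA of 1 gene is sparse, the cells of a cluster were also split within each library at the median tag, into CD41-high cells above it and CD41-low cells at or below it. Their summed counts were compared with edgeR (quasi-likelihood test, library as a block, Benjamini-Hochberg over all genes tested, call at adjusted p under 0.1). In Megakaryocytes, all 9 genes were called higher in CD41-high cells in the fit over 6 libraries, against 3.5% of 5375 genes called in all, 2.55% higher and 0.949% lower. Itga2b was at 1066 and 733 CPM in CD41-high and CD41-low cells of WT 1, 672 and 354 in WT 2, 441 and 331 in WT 5, 466 and 393 in cKO 1, 558 and 539 in cKO 2, and 338 and 322 in cKO 3. It was higher in 6 of 6 libraries, as were Itgb3, Gp1ba and Gp1bb, while Gp9, Gp5, Pf4 and Ppbp were higher in 5 of 6 and Treml1 in 4 of 6. Itga2b was raised by less in the cKO libraries than in WT, a difference that was not tested. The fitted log2 differences were 0.43 for Itga2b (SE 0.104, adjusted p = 0.0477, edgeR), 0.46 for Itgb3, 0.55 for Pf4 (adjusted p = 0.0115, edgeR) and 1.11 for Ppbp (SE 0.302, adjusted p = 0.0802, edgeR). The other 5 ranged from 0.39 (Gp5) to 0.61 (Gp1ba). These calls rested on few cells and libraries: 1 gene was called without WT 2, 3 without WT 1, 4 without WT 5 and 1 with cells thinned to 5000 UMIs, where 1919 genes could be tested.

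In EMP, the 6 genes that passed the filter on low counts were all called higher in CD41-high cells in the fit over 7 libraries, against 9.46% of 7402 genes called in all, 3.82% higher and 5.63% lower. A gene low in CD41-low cells could pass that filter through its counts in CD41-high cells. With no filter 7 of the 9 were called higher, and Gp1ba (1.61, adjusted p = 0.482, edgeR) and Ppbp (-0.688, adjusted p = 0.944, edgeR) were not called. Gp5 was at 14.4, 17.6, 11.5 and 17.5 CPM in CD41-high cells of WT 1, WT 2, WT 3 and WT 5 and at 3.68, 4.6, 1.95 and 11.1 in CD41-low cells. In cKO 1 to cKO 3 it was at 13.4, 18.1 and 18.2 CPM in CD41-high and 4.29, 2.97 and 0.947 in CD41-low cells. It was thus higher in 7 of 7 libraries, with a log2 difference of 1.85 (SE 0.275, adjusted p = 0.000148, edgeR). Gp1bb differed by 1.83 (adjusted p = 0.000102, edgeR), Pf4 by 1.37, Gp9 by 1.17, Itgb3 by 1.11 and Itga2b by 0.75 (SE 0.141, adjusted p = 0.00152, edgeR). Pf4 and Itga2b were higher in 6 of 7 libraries and the other 4 in 7 of 7. The gene of CD41 itself had the smallest difference of the 6. Leaving out any 1 library left every gene that could be tested called (6, or 7 without cKO 1 or cKO 3, where 7 could be tested), but with thinned cells only 1 gene could be tested and 0 were called. In EHT only Itgb3 (-0.27, adjusted p = 0.585, edgeR) and Pf4 (-0.03, adjusted p = 0.98, edgeR) passed the filter and 0 of 2 were called, also with DESeq2 and at an unadjusted p under 0.05, against 4.39% of 6086 genes (1.53% higher and 2.86% lower). With no filter Itga2b was called in EHT at 1.01 (adjusted p = 0.0205, edgeR), and it was higher in CD41-high cells in 6 of 7 libraries.

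**Figure D4:**
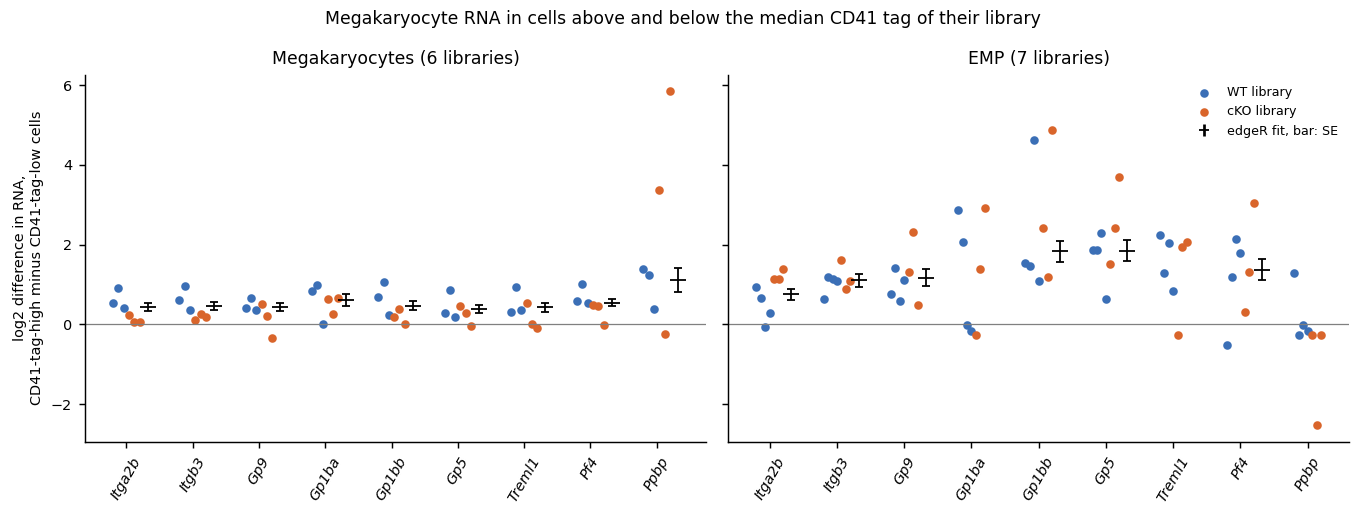
Difference in RNA between CD41-high and CD41-low cells on the log2 scale, in Megakaryocytes (6 libraries) and EMP (7 libraries), with 1 point per library (blue WT, orange cKO) and the edgeR estimate with its SE in black. Megakaryocytes points lie mostly between 0 and 1, and EMP points of Gp1bb and Gp5 lie above 0 in 7 of 7 libraries.

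The split moved with other properties of the cells. CD41-high cells had more UMIs than CD41-low cells in every library used (in Megakaryocytes of WT 1 a median of 30806 against 18167, and in cKO 3 of 16632 against 15391). They also carried more of the 4 other tags (CD117, CD43, CD45.2 and CD27) in EMP and EHT of all 7 libraries and in Megakaryocytes of 5 of 6. When Megakaryocytes were split by those 4 tags in place of CD41, 5 of the 9 genes were called lower in the high cells, and in EMP 1 of 7 was called, Gp1bb at -1.15. In EMP, CD41-high cells had less of the granulocyte markers (Mpo, Elane, Prtn3, S100a8 and S100a9, summed) in 7 of 7 libraries. Erythroid markers were higher in CD41-high cells in 4 of 6 Megakaryocytes and 6 of 7 EMP libraries. In EHT, CD41-high cells had more of the mast cell markers in 7 of 7 libraries (1.1 to 407 CPM against 0 to 12.7) and of the granulocyte markers in 6 of 7. The mast cell sum of EHT was mostly Cpa3 (219 UMIs, beside 3 of Ms4a2 and 0 of Mcpt4, Tpsb2 and Cma1). CD41-high EHT cells had more of the endothelial markers in 2 of 7 libraries (464 to 833 CPM against 658 to 1262 in CD41-low cells), of the arterial markers in 1 of 7 (3.87 to 24.7 against 18.9 to 70.3 CPM) and of the erythroid markers in 1 of 7. Their part in the differences was not tested.

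A list of 48 other platelet and megakaryocyte genes (46 in the table) moved with the tag as well. In Megakaryocytes 16 of the 43 tested rose with the tag and 0 fell (2.55% and 0.949% of all genes tested; median log2 difference 0.29, against 0.01 over all genes tested). The 16 were granule genes such as Serpine2 (0.91) and F5 (coagulation factor V, 0.81), cytoskeleton and enzyme genes such as the membrane-bending gene Sdpr (0.77) and the platelet tubulin gene Tubb1 (0.74), and receptor and signalling genes such as the collagen receptor gene Gp6 (0.55). Of 11 transcription factor genes 0 were called, with Nfe2 at 0.43 (adjusted p = 0.107, edgeR). In EMP 12 of 28 rose and 3 fell (3.82% and 5.63% of all genes; median 0.34 against 0.01). Those that rose included the thrombin receptor gene F2r (1.67) and the granule release gene Rab27b (1.61), and they held Zfpm1 (1.11) and Gata1 (0.87), whose products act together in the megakaryocyte and erythroid lineages. Those that fell were F13a1 (-0.75), Srgn (-0.53) and Runx1 (-0.19). In EHT 3 of 29 rose (Plek 0.62, Srgn 0.40 and Mef2c 0.26) and 5 fell (1.53% and 2.86% of all genes; median -0.03 against 0.01), among them Sparc (-0.80), Vwf (-0.64) and F2r (-0.62). F2r therefore differed in direction between EMP and EHT, and that difference was not itself tested.

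All genes were also ranked, keeping called genes at a mean of at least 5 on the log2 CPM scale that moved the same way in every library used. Among these, the genes that rose most in CD41-high Megakaryocytes were Optn (0.83), F5 and Hmgcs1 (0.81). Those that fell most were Pdcd4 (-1.15), the carbonic anhydrase gene Car2 (-1.12) and the serine synthesis gene Phgdh. In EMP, F2r and Cited4 (1.48) were among the 3 that rose most, and BC100530 (-2.73), Stfa1 (-1.87) and Cd69 (-1.40) fell most. BC100530 and Stfa1 belong to a family of near-identical stefin genes whose reads may be shared. In EHT, the cyclin gene Ccnd1 (1.05), Mt1 (0.99) and Fcer1g (0.96) rose, and 3 genes known from endothelium fell, Procr (-1.79), Nrp1 (-1.63) and Ramp2 (-1.32).

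Genotype was compared per cluster with edgeR on counts summed per library (no covariate, call at adjusted p under 0.1). In Megakaryocytes (WT 1, 2, 4 and 5 against 3 cKO, with WT 3 left out for its 5 cells), 0 of the 9 genes were called, against 0.206% of 7770 genes (0.142% higher and 0.0644% lower). An unadjusted p under 0.05 was seen for 4 of the 9, beside 686 of the 7770 genes, and DESeq2 also called 0 of the 9. Gp9 was at 1044, 465, 490, 460 and 489 CPM in WT 1 to WT 5 and at 128, 364 and 64 CPM in cKO 1 to cKO 3. The log2 difference was -1.75 (SE 0.516, adjusted p = 0.329, edgeR). Treml1 was at 1086, 617, 551, 564 and 612 CPM in WT and at 182, 496 and 107 CPM in the cKO (-1.47, SE 0.448, adjusted p = 0.345, edgeR). Ppbp was at 1659, 1051, 581, 951 and 1107 CPM in WT and at 202, 1153 and 48 CPM in the cKO (-1.38, SE 0.73, adjusted p = 0.626, edgeR).

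In all 3 genes cKO 1 and cKO 3 were low and cKO 2 lay near or within the WT range. Pf4 and Gp1ba were at -0.83 and -0.84, Itga2b at -0.44, Gp5 at -0.24, Gp1bb at 0.20 and Itgb3 at 0.16, none called. Without cKO 2, 3 genes were called lower by edgeR: Ppbp (-3.21, adjusted p = 0.0343), Treml1 (-2.28, adjusted p = 0.0353) and Gp9 (-2.64, adjusted p = 0.051). With no filter on low counts 5 were called lower, Gp9, Gp1ba, Treml1, Pf4 and Ppbp. Meis1 in Megakaryocytes was at 79.5 to 166 CPM in WT, 51.9 and 51.7 CPM in cKO 1 and cKO 3, and 71.6 CPM in cKO 2. The 6 erythroid markers, all counted in this cluster, summed to 21.9 to 6691 CPM in WT and 8205 to 36664 CPM in the cKO. Their part in the differences was not tested.

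In EMP 1 of 7 tested genes was called, against 4.74% of 9172 genes (2.68% higher and 2.06% lower). Gp9 was at 15.5, 14.9, 11.1, 20.6 and 25.9 CPM in WT 1 to WT 5 and at 4.38, 7.37 and 1.29 CPM in cKO 1 to cKO 3, where these were 9, 16 and 3 UMIs. It fell by 1.99 on the log2 scale (SE 0.41, adjusted p = 0.0358, edgeR), but was not called without cKO 1 or without cKO 3. Itgb3 was at 0.61 (adjusted p = 0.233, edgeR), Gp1bb at 0.57, Treml1 at -1.04, and Itga2b, Gp5 and Pf4 between -0.20 and -0.09. Meis1 itself fell in EMP (-1.20, adjusted p = 0.00663, edgeR), from 56.7 to 77 CPM in WT to 20.9 to 36.4 CPM in the cKO.

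In EHT 0 of 4 tested genes were called, against 0.127% of 8670 genes (0.0577% higher and 0.0692% lower), and 0 by DESeq2. An unadjusted p under 0.05 was seen for 3 of the 4, beside 823 of the 8670 genes. Itgb3 was at 24.1, 20.7, 25.9, 32.8 and 26.6 CPM in WT and at 44.5, 45.9 and 45.8 CPM in the cKO (0.82, SE 0.192, adjusted p = 0.163, edgeR). Pf4 was at 36 to 44.8 CPM in WT and at 17.4, 29.2 and 26.4 CPM in the cKO (-0.80, SE 0.212, adjusted p = 0.191, edgeR). Itga2b, the partner of Itgb3, was at -0.01 (SE 0.286). Gp9 was at -1.66 (adjusted p = 0.287, edgeR). In Myeloid cells 0 of 7 tested genes were called, against 3.26% of 11479 genes (1.48% higher and 1.78% lower), and 0 by DESeq2. An unadjusted p under 0.05 was seen for 1 of the 7 (Gp1bb, 1.71, adjusted p = 0.19, edgeR), beside 1764 of the 11479 genes. A fit with the replicate number as a block called 3 genes in EHT (Itgb3, Gp9 and Pf4), 2 in Myeloid and 3 in EMP, and the numbers were not found to pair the libraries. Of the 48 listed platelet genes, 0 of 43 were called in Megakaryocytes by edgeR (0.206% of all genes). In Myeloid 5 of 39 were called, against 3.26% of all genes (Nfe2 and Nbeal2 higher, Cd9, Serpine2 and Runx1 lower). In EMP 6 of 32 were called, against 4.74% of all genes. Of these, F13a1, Srgn, Itga6, Nfe2 and Cd9 were higher, and Meis1, the gene targeted in the cKO, was lower. In EMP, where those changes were called, the mast cell markers were mostly Cpa3 (2824 UMIs, beside 90 of Ms4a2 and 4 of Cma1). Their sum was 52.2 to 139 CPM in WT and 208 to 292 CPM in the cKO. The erythroid markers summed to 4.36 to 187 CPM in WT and 278 to 1809 CPM in the cKO. The part of both marker sets in these changes was not tested.

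**Figure D5:**
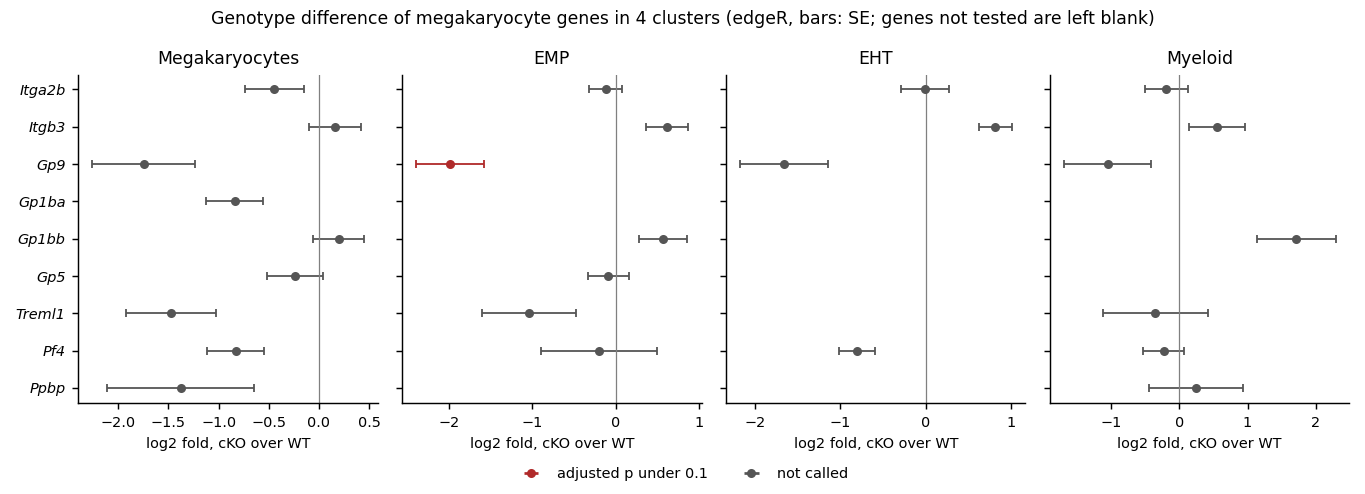
Log2 difference in RNA between cKO and WT with its SE, per gene, in Megakaryocytes, EMP, EHT and Myeloid (edgeR, red where adjusted p was under 0.1, blank where the gene was not tested). Gp9 lies to the left of 0 in all 4 panels and is called in EMP, and Itgb3 lies to the right of 0 in all 4 without a call.

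The CD41 tag, taken over aEC of the same library, did not separate the genotypes at a threshold that 4 against 3 libraries cannot reach (smallest exact permutation p = 0.0571). On the log2 scale it was 0.96 higher in the cKO in Megakaryocytes (7.17 ± 0.474 in WT and 8.14 ± 0.524 in the cKO, exact permutation p = 0.114, adjusted 0.171). In EMP it was 0.72 higher (3.76 ± 0.534 and 4.48 ± 0.505, exact permutation p = 0.114, adjusted 0.171) and in EHT 0.06 lower (exact permutation p = 1). WT 5, the WT library of cKO-like depth, was at 7.87 in Megakaryocytes, 4.45 in EMP and 4.29 in EHT. The genotype difference against WT 5 alone was thus 0.26, 0.03 and -0.90. With all 7 tagged libraries and the 4 vEC clusters in place of aEC, the difference was 1.04 in Megakaryocytes and 0.80 in EMP. Both were at the smallest exact permutation p of 0.0571 (adjusted 0.0857), while EHT was at 0.02. The ratio of Megakaryocytes to EHT tag was 12 to 15.4 in the WT libraries and 17.1 to 37 in the cKO libraries, without overlap and not tested as a genotype difference.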

How the data were processed

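RNA and antibody tags were measured in 8 libraries (5 WT, 3 Meis1-flox/VE-Cre). The authors aligned reads to mm10 with Cell Ranger 3.0.2 (per the submitters' processing notes) and deposited raw UMI counts per gene, tag and cell, with a table of cluster names. They filtered cells on detected genes and mitochondrial share, integrated the libraries with Seurat and named clusters by hand from 50 principal components. The deposited count table held whole numbers and cells held at least 2001 genes and at most 9.98% mitochondrial counts. Scrublet (scanpy 1.11.5, 30 components) marked 83 of 15168 cells, which stayed in and were left out as an alternative.

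Groups were taken from the labels. Total RNA counts per library were 20484881 to 79429129 UMIs. CPM were computed per cluster and library from summed counts. Genes were tested on sums of at least 10 cells by the quasi-likelihood F test of edgeR 4.0.16 under R 4.3.3 (filterByExpr, TMM, two-sided, Benjamini-Hochberg over all genes tested, adjusted p under 0.1), with DESeq2 1.42.0 as an alternative. Tags were compared within libraries as log2 ratios of means (at least 5 cells), with exact permutation tests. Alternatives covered scaling, the filter, thinning, doublets, the replicate block, the reference cluster, other tags and each library left out. Nothing shows whether replicate pools were from separate litters, so p-values measure the spread between pools.

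The 9 genes, the tag and the gene lists were chosen with earlier results of these data known. All 9 genes and the tag are named in each comparison, with up to 4 called list genes of largest change per direction. For the tag split, the 3 largest rises and falls are named among called genes at a mean log2 CPM of at least 5 that moved the same way in every library. Some genes that this rule names are not reported here. On simulated counts with 200 genes changed by a log2 fold of 1.5, the step found 86.9% of the changed genes in the genotype comparison of Megakaryocytes (7578 genes, 6.74% of calls false). It found 100% in the tag splits of EMP (7281 genes, 9.27% of calls false) and EHT (11.3% of calls false). In the data Gp9 and Treml1 fell by near that size in Megakaryocytes without a call. The simulated share thus does not show that no such change was missed.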

Additional observations from a re-analysis of the deposited data

Results flagged for a closer look

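Among 45 sets of WT libraries examined (each gene in Megakaryocytes, EMP, EHT and Myeloid, and the tag contrasts), 6 held a library apart from the others by Dixon's criterion, which chance meets in about 1 of 20 sets. In Megakaryocytes, WT 1 was the highest for Gp9 (1044 CPM, the others 460 to 490) and for Treml1 (1086 CPM, the others 551 to 617). Without WT 1 the genotype differences were -1.30 for Gp9 and -1.14 for Treml1, not called by edgeR, as with it. In EMP, WT 5 was the highest for Pf4 (58.95 CPM, the others 5.36 to 11.4). In Myeloid cells WT 5 was the highest for both integrin genes, Itga2b (10.12 CPM, the others 4.2 to 5.58) and Itgb3 (10.12 CPM, the others 2.9 to 3.9). Treml1 in EHT was lowest in WT 2 (0 CPM, from 0 UMIs, where 3 UMIs would be 1.88 CPM), and the 8 EHT sums held 0 to 2 Treml1 UMIs each.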

How the results depend on the processing

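Of 632 values of single genes under other settings, 546 kept their call or lack of one, 38 lost the call and 31 gained it. A further 17 reversed direction with a call in at least 1 of the settings compared. A change of sign between values that were both not called was counted as kept. The counts of the 9 genes called by genotype depended on the filter, the replicate block and single libraries. With no filter 5 were called in Megakaryocytes and 3 in EHT, and against WT 5 alone 2 in EMP. The replicate numbers did not pair the libraries (11 same-number pairs, correlations of deviations -0.15 to 0.16, 4 over 0.1). With the replicate block 3 were called in EMP, 3 in EHT and 2 in Myeloid, and the same libraries without the block (an alternative chosen after seeing the data) also gave 3, 3 and 2. Pf4 in EMP (-0.20) turned to 1.1 with the block, 1.12 in the same libraries without it, and ran from -0.452 (without WT 2) to 0.88 (without WT 5) with each library left out. Leaving out each library gave 0 to 3 in Megakaryocytes (3 without cKO 2), 0 to 3 in EMP (3 without WT 5, 0 without cKO 1 or cKO 3), 0 to 2 in EHT (1 without WT 4, 2 without WT 5) and 0 to 2 in Myeloid (2 without WT 5). Counts over all genes moved as well. In EMP 435 became 25 with median UMIs as a covariate, 50 against WT 5 alone, 953 with the block and 717 unblocked, and 44 (without cKO 1) to 828 (without WT 5) with each library left out. In Megakaryocytes 16 became 86 with DESeq2, 273 with no filter, 1 with the covariate, 10 against WT 5 alone, 71 with the block and 31 unblocked, and 0 (without WT 4 or cKO 1) to 118 (without WT 5). In EHT 11 became 43 with DESeq2, 237 with no filter, 2 with the covariate, 6 against WT 5 alone, 450 with the block and 278 unblocked, and 0 (without cKO 3) to 261 (without WT 5). In Myeloid 374 became 584 with DESeq2, 10 with the covariate, 1333 with the block and 1335 unblocked, and 44 (without cKO 1) to 1421 (without WT 5). The cause was not tested.

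For the CD41 split, thinning left 1 gene called in Megakaryocytes, with Gp9 at -0.0237, and 0 in EMP, where fewer genes could be tested. Splitting by the 4 other tags gave 5 in Megakaryocytes, all lower, 1 in EMP and 1 in EHT. Under it the Megakaryocytes values were -0.594 for Itga2b, -0.303 for Itgb3, -0.605 for Gp9, -0.457 for Gp1ba, -0.567 for Gp1bb, -0.63 for Gp5, -0.447 for Treml1, -0.341 for Pf4 and -0.925 for Ppbp, and the EMP values were -0.133 for Itgb3, -0.406 for Gp9, -1.15 for Gp1bb and -0.272 for Gp5. Over all genes, 188 calls in Megakaryocytes became 6 thinned, 291 with no filter, 1018 split by the centred log ratio and 365 by the other tags, 700 in EMP became 241 with DESeq2, 161 thinned and 456 by the other tags, and 267 in EHT became 63 with DESeq2, 72 thinned, 18 by the centred log ratio and 538 by the other tags. The cause was not tested. Leaving out each library gave 1 to 9 in Megakaryocytes (1 without WT 2, 3 without WT 1, 4 without WT 5) and 0 to 1 in EHT (1 without cKO 2). With no filter 1 was called in EHT.

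For the tag, pre-HE against aEC was 0.0959 by medians, -0.536 against the 4 vEC clusters, which passed, and -0.22 to 0.0509 with each library left out (0.0509 without cKO 3). Myeloid against aEC was 0.117 by the centred log ratio and EMP against EHT 0.522 by medians. By Itga2b UMI, the 4 other tags gave -0.0423 in Megakaryocytes, -0.124 in EMP and -0.769 in EHT, and no thinning gave 0.825 in EMP and 0.811 in EHT. It could not be run in Megakaryocytes, where nearly every cell held an Itga2b UMI. By genotype, EMP was -0.298 by the centred log ratio, and EHT 0.0179 against vEC and -0.231 to 0.22 with each library left out (0.22 without WT 5, 0.0365 without cKO 1). The other tag contrasts kept their direction and their side of the threshold under each alternative run, but not always their size. By the centred log ratio EMP against aEC was 0.992 and EHT against aEC 0.601.

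Depth limits the genes at a few UMIs per cluster and library, above all outside Megakaryocytes, and WT 3 held 5 Megakaryocytes cells.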

Other observations

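The mean CD41 tag of vEC_1 in WT 5 was 8.12 per cell with a median of 1, against means of 2.39 to 4.62 in the other vEC clusters of that library. The highest of its 420 cells held 1437 tags. EMP, the cluster with the next highest Itga2b, had 1876 ± 596 CPM (SD, n = 8 libraries) of summed granulocyte markers and 141 ± 94.6 CPM of summed mast cell markers. The mast cell sum was mostly Cpa3, and Mcpt4 and Tpsb2 were at 0. In Megakaryocytes 4 of the 5 mast cell markers were at 0 and the endothelial markers summed to 604 ± 110 CPM, against 3033 ± 198 CPM in aEC.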
